A study of Mus musculus with 4 samples.

Results

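The genes described here are 10 members of the heat shock and small chaperone families: Hspb1, Hspb6, Hspb7, Cryab, Hspa1a, Hspa1b, Hsp90aa1, Hsph1, Dnajb1 and Bag3. They were found by symbol, and all 10 had a row of their own among the 32285 features of each table. Spatial RNA was measured on 4 cryosections of tibial muscle from C57BL/6 mice, 6 to 8 weeks old, that carried the Nse-Bmp4 transgene, and there was 1 section per day. The day 0 section was uninjured, and the other sections were taken 1, 3 and 7 days after cardiotoxin (CTX), a snake toxin that destroys myofibres, was injected to start heterotopic bone formation. Every section carried the transgene, in which a Bmp4 cDNA is driven by the neuron-specific enolase promoter, so the day 0 section is injury-free but not wild type. By the labels 3 muscles were mixed per group, and it is not clear which of them a section holds.

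Heat shock proteins keep other proteins folded. The small members (Hspb1, Hspb6, Hspb7 and Cryab) bind unfolding proteins without using ATP and are abundant in striated muscle, where they sit on desmin, titin and filamin filaments. Hspa1a and Hspa1b encode the stress-inducible Hsp70 chaperone, Dnajb1 is a J-domain partner that hands it clients, Hsph1 resets its nucleotide, and Bag3 links it to the small heat shock proteins and to autophagy of damaged filaments. Hsp90aa1 encodes the inducible form of the Hsp90 chaperone. Under acute stress many of these genes are switched on by heat shock factors, which bind inverted repeats of the letters GAA and TTC.

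The data were counts of unique molecular identifiers (UMIs), each standing for a captured transcript, in spots that each cover several cells. The 4 sections held 2107 to 3032 spots and 16777832 to 56113066 UMIs, with the lowest total and the lowest median per spot (6322 UMIs) at day 1, when 513 of 2667 spots held under 2000 UMIs. Levels are given as CPM, the UMIs of a gene per 1000000 UMIs of the section, with exact 95% Poisson intervals, and log2 ratios of CPM with an exact conditional interval. With 1 section per day there is no replicate, so all intervals cover counting error alone, no test between days was possible, and a gene was called higher or lower when its CPM differed by 2-fold. The share of UMIs from 13 adult myofibre genes was 26.7%, 14.6%, 8.75% and 15.5% on days 0, 1, 3 and 7, the mitochondrial share was 13.5%, 17.8%, 11.7% and 11.7%, and monocyte and macrophage markers were highest at day 3. The part of these changes in tissue makeup in the results was not tested, and in such summed counts fewer cells of a type and less RNA per cell cannot be told apart. Between 1539 and 2311 spot barcodes were common to any pair of sections, since the arrays use one barcode set.

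Promoter windows from RefSeq (GRCm38.p6, the same assembly as mm10) were held for 8 of the 10 genes, from 250 bases before to 50 bases after a start. Hspa1a and Hspa1b are shown because they are near copies: the windows differ at 4 of 300 positions, and 1 of these lies in the 150 bases printed. Both lie on the minus strand of chromosome 17, with 10121 bases between the end of one gene and the start of the other. Hspb1 is shown because its stretch holds a pair of the letters searched, and Hsph1 because it alone among the genes with a window held the longer motif. Capitals mark matches to GAANNTTC or TTCNNGAA, each of which reads the same on both strands.
Hspa1a, chr17:34972157-34972306, minus strand: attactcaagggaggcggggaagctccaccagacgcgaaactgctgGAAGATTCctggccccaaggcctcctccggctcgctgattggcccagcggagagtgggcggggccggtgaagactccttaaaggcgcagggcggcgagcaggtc
Hspa1b, chr17:34959239-34959388, minus strand: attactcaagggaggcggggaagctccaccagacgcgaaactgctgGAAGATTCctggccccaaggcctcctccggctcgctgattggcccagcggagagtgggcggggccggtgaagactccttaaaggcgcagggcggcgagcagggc
Hspb1, chr5:135887769-135887868, plus strand: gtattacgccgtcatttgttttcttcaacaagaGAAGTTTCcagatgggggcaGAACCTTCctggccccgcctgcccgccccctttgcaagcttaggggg
Hsph1, chr5:149636279-149636308, minus strand: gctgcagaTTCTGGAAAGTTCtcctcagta

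The longer motif, 3 alternating units of GAA and TTC with 2 free bases between units on either strand, was in 198 of 32851 windows of all genes (0.603%). Among the 11 windows of these genes it was in 2, both of Hsph1 and both holding the same site just after the start. The shorter motif printed in capitals, added after the longer one had been searched and contained in it, was in 15.1% of all windows and in 7 of the 11. It began 104 bases before the start in both Hspa1a and Hspa1b. In Hspb1 it began 117 and 97 bases before the start. A match is a description of letters in these windows, and says nothing of binding.

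Of the small heat shock genes, Cryab, Hspb7 and Hspb1 were higher past 2-fold at days 1 and 3, and Hspb6 on no day. Cryab, encoding alphaB-crystallin, had 648 CPM (28432 UMIs) at day 0, 6631 CPM (111249 UMIs) at day 1, 2760 CPM (154885 UMIs) at day 3 and 644 CPM (26925 UMIs) at day 7. Its day 1 level was 10.2 times that of day 0, a log2 ratio of 3.35 (3.34 to 3.37). On CPM its day 7 level was within counting error of day 0. With TMM factors, DESeq2 size factors and a reduced total, described below, the day 7 ratio was -0.62, -0.65 and -0.30. The 10 genes together made up 0.180%, 0.978%, 0.532% and 0.179% of all UMIs on days 0, 1, 3 and 7.

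Hspb7, a small heat shock protein of heart and skeletal muscle that binds filamin C, had 84.6, 998, 588 and 120 CPM on days 0, 1, 3 and 7. The log2 ratios to day 0 were 3.56 (3.51 to 3.61), 2.80 (2.75 to 2.85) and 0.51 (0.44 to 0.57), and no pair of days next to each other in level had overlapping intervals. Hspb1, which encodes Hsp27 and protects actin and desmin filaments, had 257, 1182, 772 and 264 CPM on the same days. Its log2 ratio was 2.20 (2.17 to 2.24) for day 1 and 1.59 (1.56 to 1.62) for day 3, and the day 0 and day 7 intervals overlapped. Cryab, Hspb7 and Hspb1 thus had one order, with day 1 above day 3 and day 3 above both other days.

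Hspb6, encoding Hsp20, did not share that order although it belongs to the same family. Over days 0, 1, 3 and 7 it had 516, 552, 636 and 425 CPM, a range of 1.50-fold, with no overlap between days next to each other in level. Its log2 ratios to day 0 were 0.10, 0.30 and -0.28, and those of days 1 and 3 changed sign under every other scaling tried.

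The inducible Hsp70 pair was thinly counted. Hspa1a had 433, 383, 683 and 361 UMIs on days 0, 1, 3 and 7, or 9.87, 22.8, 12.2 and 8.63 CPM. Hspa1b had 265, 297, 727 and 284 UMIs, or 6.04, 17.7, 13.0 and 6.79 CPM. Both were highest at day 1, with log2 ratios to day 0 of 1.21 (1.01 to 1.41) for Hspa1a and 1.55 (1.31 to 1.80) for Hspa1b, and for both the day 0 and day 7 intervals overlapped. At day 3 Hspa1b was still past 2-fold at 1.10 (0.90 to 1.31), while Hspa1a had a log2 ratio of 0.30 (0.13 to 0.48). The share of Hspa1a in the UMIs of the pair was 62.0% (exact Clopper-Pearson interval 58.3 to 65.6) before injury and then 56.3% (52.5 to 60.1), 48.4% (45.8 to 51.1) and 56.0% (52.0 to 59.8). The genes are near-identical copies, so how the authors' counting split reads between them is uncertain and the shares describe the tables only.

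Hsp90aa1 had a later maximum. Over days 0, 1, 3 and 7 it had 57.3, 125, 272 and 69.3 CPM, with log2 ratios to day 0 of 1.13 (1.04 to 1.21), 2.25 (2.19 to 2.31) and 0.27 (0.20 to 0.35). From day 1 to day 3 it was higher by 1.12 on the log2 scale, while Cryab fell by 1.26, and no other member passed 2-fold either way between these days (background over all genes 18.1% higher and 3.13% lower). These calls moved with the scaling: with TMM factors Hsp90aa1 had 0.76 between these days and was not called, while Hspb7 (-1.12) and Hspa1a (-1.27) were lower past 2-fold beside Cryab, and the other 2 scalings gave the same 3 calls. Dnajb1 had 12.4, 18.4, 29.3 and 27.5 CPM, so that days 3 and 7 overlapped and both lay above day 1. It was the only member past 2-fold at day 7, with a log2 ratio of 1.14 (1.00 to 1.29), against 32.7% of all genes higher past 2-fold in that comparison, and the call was lost under each other scaling.

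On the CPM scale Hsph1 and Bag3 moved little. Hsph1 had 61.5, 79.4, 88.3 and 73.9 CPM on days 0, 1, 3 and 7, a range of 1.44-fold, with days 1 and 7 overlapping. Bag3 had 146, 155, 146 and 150 CPM, a range of 1.06-fold, with overlap between all days next to each other in level. This level Bag3 stood beside a Cryab level that spanned 10.3-fold and an Hspb7 level that spanned 11.8-fold. With TMM factors the log2 ratio of Bag3 to day 0 was -0.10, -0.55 and -0.57 for days 1, 3 and 7.

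**Figure D1:**
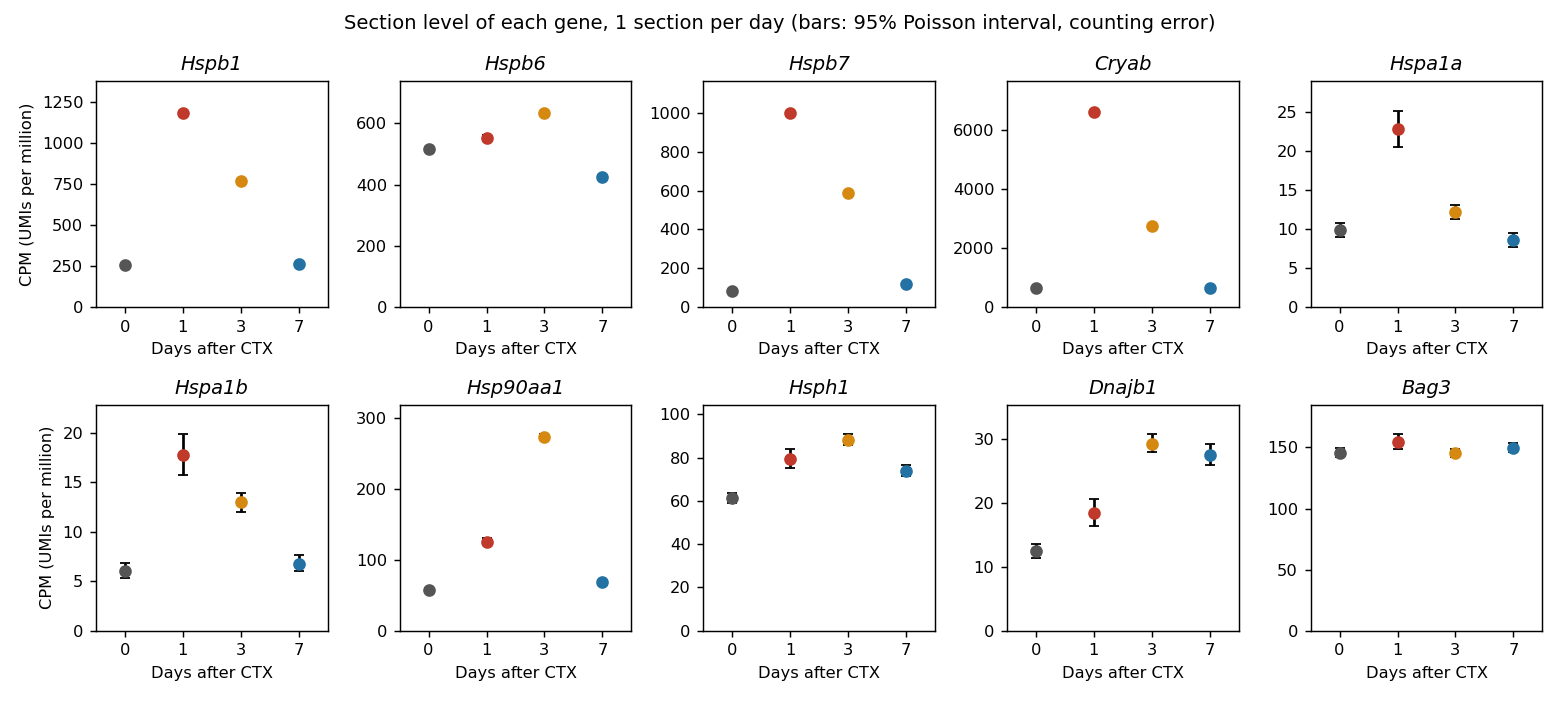
Level of each gene in CPM (y axis from 0, a scale of its own in each panel) against days after CTX, 1 section per day, with 95% Poisson intervals. Hspb1, Hspb7, Cryab, Hspa1a and Hspa1b were highest at day 1, Hspb6, Hsp90aa1, Hsph1 and Dnajb1 at day 3, and Bag3 lay between 146 and 155 CPM throughout.

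In counts, 6 of the 10 genes were higher past 2-fold at day 1 (Hspb1, Hspb7, Cryab, Hspa1a, Hspa1b and Hsp90aa1) and none lower, where 17.4% of the 15091 genes tested were higher and 11.4% lower. At day 3 again 6 were higher and none lower, with Dnajb1 in place of Hspa1a, where 33.3% of all genes were higher and 8.26% lower. At day 7, 1 was higher and none lower, against 2.13% of all genes lower. The median log2 ratio of the members was 1.17, 1.17 and 0.11 for days 1, 3 and 7, beside 0.15, 0.58 and 0.65 over all genes tested. From day 3 to day 7, 4 members were lower past 2-fold (Hspb1, Hspb7, Cryab and Hsp90aa1) and none higher, where 11.8% of all genes were lower and 16.1% higher. At day 7 the members' median therefore lay below the median of all genes, while at days 1 and 3 it lay above.

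The median gene was itself displaced on the CPM scale, and edgeR's TMM factors moved every log2 ratio by -0.19, -0.55 and -0.61 for days 1, 3 and 7. On that scale 5, 4 and 0 members were higher past 2-fold. Their median log2 ratio was 0.98, 0.62 and -0.50, beside -0.04, 0.03 and 0.05 over all genes tested. No share of all genes past 2-fold was taken on that scale, and the shares given for CPM do not apply to it. Hspb1, Hspb7 and Cryab kept the call at days 1 and 3, with 2.01, 3.37 and 3.17 at day 1 and 1.04, 2.25 and 1.54 at day 3, and Hsp90aa1 kept it at day 3 with 1.70. Hsp90aa1 at day 1 (0.94) and Hspa1b and Dnajb1 at day 3 (0.55 and 0.68) were no longer past 2-fold. The sign differed between scalings for Hspb6 and Bag3 at day 1, for Hspb6, Hspa1a, Hsph1 and Bag3 at day 3, and for 6 members at day 7. Hspb1, Hspa1a and Hspa1b, whose day 0 and day 7 CPM intervals overlapped, had -0.57, -0.80 and -0.44 at day 7 with TMM factors.

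**Figure D2:**
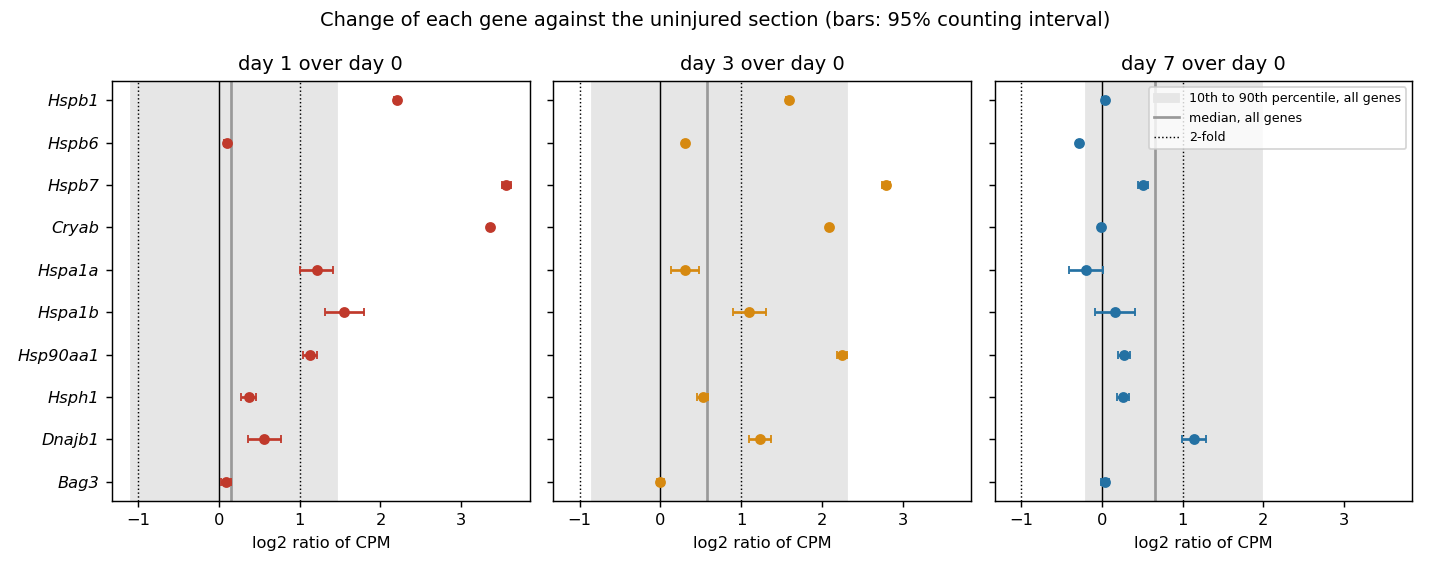
Log2 ratio of CPM to the day 0 section for each gene (points, 95% counting intervals), with the median (grey line) and the 10th to 90th percentile (grey band) of all genes tested, and dotted lines at 2-fold. At day 1 Hspb1, Hspb7, Cryab and Hspa1b lay right of the band, and at day 7 all 10 lay within or left of it.

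Within a section, spots with at least 2000 UMIs were ranked by their share of adult myofibre UMIs, a list that holds none of the 10 genes, and split into 3 equal groups, called muscle-poor, middle and muscle-rich. In the uninjured section the members leaned to muscle-poor spots: Hspb7 had 150 CPM in muscle-poor, 62.9 in middle and 38.7 in muscle-rich spots, a log2 ratio of rich over poor of -1.95 (-2.09 to -1.82). Hspa1a (-1.42) and Hspa1b (-1.83) were the other members past 2-fold, and none was higher, where 15.9% of all genes were lower and 0.773% higher. The median was -0.73 for the members and -0.39 over all genes tested, so genes at large leaned the same way. Hspb6 (-0.73) and Cryab (-0.74) leaned the same way by less, and for Hspb1 the interval held 0 (-0.07 to 0.06). Myofibre genes still made up 21.7% of UMIs in the muscle-poor spots of that section, so the split there was among spots that all held muscle. The list was mostly of fast-fibre genes, with slow myofibre genes in a list of their own, so muscle-poor spots may include slow fibres. In the day 0 spots richest in slow myofibre genes, Hspb7, Hspb6 and Cryab were higher by 1.69, 0.87 and 0.81, and Hspb1 by 0.06. The part of fibre type in the lean to muscle-poor spots was not tested.

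At day 1 the median log2 ratio of rich over poor was -0.70 for the members and -0.84 over all genes tested. Cryab had 9752 CPM in muscle-poor, 7170 in middle and 3546 in muscle-rich spots, a log2 ratio of -1.46 (-1.48 to -1.44). Hsp90aa1 had a log2 ratio of -2.12 (-2.32 to -1.93). These were the members past 2-fold, and both were lower in muscle-rich spots, as were 42% of all genes, with 3.13% higher. Hspb7 had -0.73, Hspb1 -0.24 and Hspb6 0.26, and with the total taken without myofibre, mitochondrial and haemoglobin genes the signs of Hspb1 (0.03) and Hspa1b (0.0035, from -0.27) turned.

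At day 3 the members differed in direction. Hspb6 had 199.5 CPM in muscle-poor, 1095 in middle and 884 in muscle-rich spots, a log2 ratio of rich over poor of 2.15 (2.10 to 2.20), and Hspb1 had 391, 1162 and 1004 CPM and a ratio of 1.36 (1.32 to 1.40). Hsp90aa1 ran the other way with 433, 156 and 93.0 CPM, a log2 ratio of -2.22 (-2.31 to -2.13), as did Hspa1b (-1.73) and Dnajb1 (-1.58). So 2 members were higher and 3 lower in muscle-rich spots, where 7.18% of all genes were higher and 44.2% lower. The median was -0.32 for the members and -0.86 over all genes tested. Cryab was highest in the middle spots, with 4306 CPM against 1952 in muscle-poor and 2081 in muscle-rich spots, and Hspb7 likewise, with 1018 against 323 and 492 CPM.

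At day 7 none was higher and 4 were lower past 2-fold in muscle-rich spots (Hspa1a -1.24, Hspa1b -1.28, Hsp90aa1 -1.29 and Dnajb1 -1.27), where 2.32% of all genes were higher and 41.2% lower. The median was -0.64 for the members and -0.83 over all genes tested. With the total without myofibre, mitochondrial and haemoglobin genes, which moves every ratio of that section by 0.44, none of these 4 was past 2-fold and Hspb6 was, at 1.18. Hspb6 (0.74) and Cryab (0.27) leaned to muscle-rich spots at day 7 on either scale.

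A finer split into 10 groups of spots by the same share, chosen after the coarser one had been seen, showed where the levels peaked. At day 3 Cryab went from 707 CPM in the group with the fewest myofibre UMIs (0.760% of UMIs) to 4543 CPM in a middle group (10.1%) and back to 1036 CPM in the group with the most (23.8%). Hspb7 followed the same course, with 69.1, 1093 and 239 CPM in those groups. Hspb6 peaked where myofibre genes made up 12.4% of UMIs, at 1231 CPM or 21.8 times its lowest level, and Hspb1 at 14.7%, with 1374 CPM. Hsp90aa1 had its maximum in the group with the fewest myofibre UMIs, 518 CPM, and its minimum in that with the most, 66.4 CPM. At day 1 Cryab (12312 CPM), Hspb7 (1818 CPM), Hspb1 (2096 CPM) and Hspb6 (691 CPM) all peaked in one group, where myofibre genes made up 7.34% of UMIs. At day 7 Dnajb1 was highest in the group with the fewest myofibre UMIs, with 55.4 CPM, and lowest in that with the most, with 11.1 CPM.

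**Figure D3:**
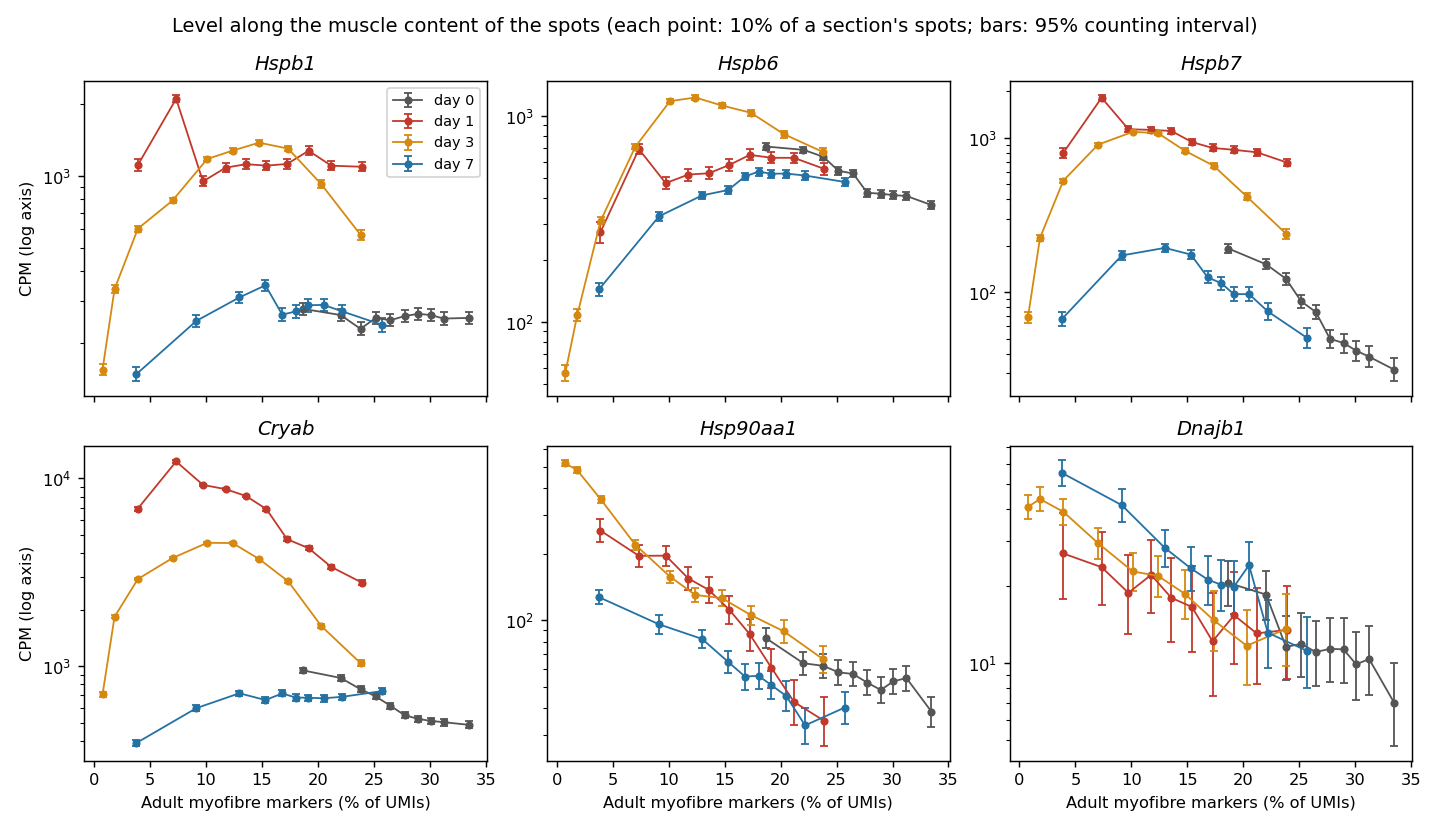
CPM of 6 genes (log axis) against the share of adult myofibre UMIs, each point being 10% of the spots of a section with at least 2000 UMIs, with 95% counting intervals. At day 3 Hspb1, Hspb6, Hspb7 and Cryab peaked between 10.1% and 14.7% myofibre UMIs, while Hsp90aa1 was highest in the group with 0.760%.

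The change against day 0 was also taken group by group. On the log2 scale Hspb7 at day 1 was higher by 3.10 in muscle-poor, 4.02 in middle and 4.32 in muscle-rich spots, and Cryab by 3.52, 3.62 and 2.81. Hspb1 was higher by 2.38, 2.15 and 2.15, close to one value in all 3 groups. Hspa1a and Hspa1b differed more, with 0.30 and 0.92 in muscle-poor and 2.36 and 2.48 in muscle-rich spots. The muscle-rich values came from 88 and 44 UMIs at day 0 and 178 and 97 at day 1. The day 1 UMIs of this pair lay in few spots, as given below, which the counting intervals do not cover. Hsp90aa1 had 1.55 in muscle-poor and -0.04 in muscle-rich spots. At day 3 Hspb6 was lower than at day 0 in muscle-poor spots (-1.73) and higher in middle and muscle-rich spots (1.19 and 1.14), which the near-level section total does not show. Cryab at day 7 had -0.55 in muscle-poor, 0.22 in middle and 0.46 in muscle-rich spots. Bag3 at day 3 had -0.50, 0.39 and 0.22 in the same order. The groups are not matched between days, since the muscle-poor spots held 21.7% myofibre UMIs at day 0 and 2.51% at day 3.

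Marker lists for cell types gave the company of each gene, by the 10% of spots richest in a list against the other spots. In spots rich in slow myofibre genes, the type I fibre program, Hspb7 was higher by 1.69 on the log2 scale at day 0, with 1.34 for day 1 and 1.14 for day 7, against 6.35%, 5.35% and 7.73% of all genes higher past 2-fold there, while at day 3 it had 0.73 and was not called. Hspa1a also passed 2-fold at day 0 (1.11), Cryab and Hspb6 leaned the same way (0.81 and 0.87), and at day 1 Hspb1 (1.60) and Hspa1b (1.29) also passed 2-fold. Hspb1 had 0.06 at day 0 and -0.06 at day 3 in such spots. In spots rich in monocyte and macrophage markers at day 3, Hspb6 (-2.82), Hspb7 (-2.15), Hspb1 (-1.84) and Cryab (-1.45) were all lower than in the other spots, where 7.47% of all genes were. Hsp90aa1 and Dnajb1 had 0.84 and 0.52 in those macrophage-rich spots. This was not particular to macrophage markers. In the day 3 spots rich in neutrophil, fibroblast and regenerating muscle genes, Hsp90aa1 had 0.73, 0.57 and 0.79, and Dnajb1 had 0.36, 0.51 and 0.70. Hspb6 had -1.47, -1.43 and -1.11 in these spots, and Cryab had -0.73, -0.47 and 0.05.

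Hspa1a and Hspa1b were also called in spots rich in other markers. In the 10% of spots richest in smooth muscle genes they were higher by 1.53 and 1.99 at day 0 (background 14.9%) and by 1.24 and 1.18 at day 7 (background 15.1%). Smooth muscle markers did not stand alone in this, as the endothelial-rich spots of day 7 gave 1.22 and 1.21. At day 0 Hspa1b also passed 2-fold in fibroblast-rich (1.53), adipocyte-rich (1.23), endothelial-rich (1.16) and macrophage-rich spots (1.07). The backgrounds there were 18.3%, 15%, 13.5% and 14%. Hspa1a had 0.76, 0.71, 0.93 and 0.61 in the same spots. Tendon-rich spots of day 0 gave 0.19 for Hspa1a and -0.18 for Hspa1b. In smooth muscle-rich spots at day 3 the values were 0.91 and 0.60, not past 2-fold. At day 1 they had -0.40 and -0.65 there. In spots rich in tendon genes that day they were higher by 1.54 and 1.31, from 112 and 77 UMIs (background 5.8%). In spots rich in cartilage genes at day 7, where heterotopic cartilage forms, Dnajb1 was higher by 1.198, and the log2 ratio was -1.50 for Hspb6 and -1.205 for Hspb1 (background 23.9% higher and 6.38% lower). The fibroblast-rich spots of that section were much the same, with Dnajb1 at 1.16, Hspb6 at -1.40 and Hspb1 at -1.15 (background 28.8% and 7.45%).

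The day 1 UMIs of the Hsp70 pair lay in few spots. Of 383 Hspa1a UMIs in 2667 spots, 50% were in 28 spots (1.05%), and of 297 Hspa1b UMIs 50% were in 22 spots (0.825%), whereas 28.1% of the spots were needed to hold 50% of all UMIs. In the other sections 50% of the Hspa1a UMIs lay in 118, 150 and 120 spots (days 0, 3 and 7). One spot at day 1, of 14126 UMIs, held 47 Hspa1a, 29 Hspa1b, 224 Hspb1 and 7 Dnajb1 UMIs, and its counts of Hspa1a, Hspa1b and Dnajb1 were the highest of any spot in that section.

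Spots with 3 or more Hspa1a UMIs were then set beside all others, as a description chosen by Hspa1a itself. At day 1 there were 22 such spots, and they held 47.3% of the Hspa1a and 40.7% of the Hspa1b UMIs of the section. Hspa1b had 483 CPM in them and 10.6 CPM in the other 2645 spots, a ratio of 45.3 (35.7 to 57.5). How reads were split within this near-identical pair is uncertain, so the ratio is not independent of the choice of spots. Hspb1 was at 5119 against 1122 CPM (ratio 4.56, 4.31 to 4.83), Dnajb1 at 63.8 against 17.7 CPM (3.61, 2.04 to 5.97, from 16 UMIs) and Bag3 at 339 against 152 CPM (2.23, 1.78 to 2.77). The 1 spot of 14126 UMIs described above gave 7 of these 16 Dnajb1 UMIs, 224 of 1283 Hspb1 UMIs and 29 of 121 Hspa1b UMIs. Ratios without that spot were not taken, and the intervals do not cover such dependence on 1 spot. For Hsp90aa1 and Hsph1 the interval of the ratio held 1 (0.94 to 1.79, and 0.81 to 1.87). The 22 spots had a median of 10818 UMIs against 6256 in the others, and adult myofibre markers made up 16.9% of UMIs against 14.6%, slow myofibre markers 0.329% against 0.161% and tendon markers 0.124% against 0.0447%. The part of depth and tissue makeup in these ratios was not tested.

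In the uninjured section 17 spots held 3 or more Hspa1a UMIs, and they held 14.1% of them. There Hspa1b had a ratio of 5.76, Dnajb1 1.00, Bag3 1.02 and Hspb1 1.37. Such spots were then left out of both sections, a setting added after the data were seen. Hspb1, Cryab and Hspb7 were still higher past 2-fold at day 1. Hspa1a and Hspa1b were not, with log2 ratios to day 0 of 0.51 (0.26 to 0.76) and 0.89 (0.61 to 1.18). Leaving out spots chosen by Hspa1a lowers its own level by construction, so these values are a description.

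**Figure D4:**
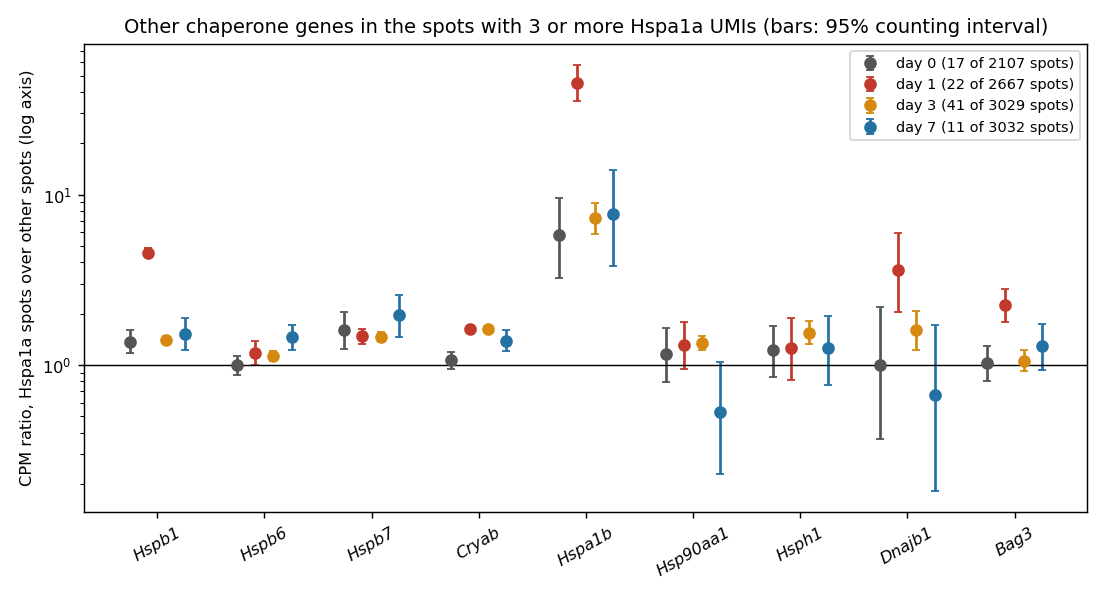
Ratio of CPM in spots with 3 or more Hspa1a UMIs to CPM in all other spots (log axis, 95% counting intervals) for the other 9 genes, by section. At day 1 Hspa1b (45.3), Hspb1 (4.56), Dnajb1 (3.61) and Bag3 (2.23) lay highest, from 22 of 2667 spots. Of the 16 Dnajb1 UMIs in these spots, 7 lay in 1 spot. The split of reads between Hspa1a and Hspa1b is uncertain.

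To compare shares of spots, each spot was thinned to 2000 UMIs in 20 random draws and shallower spots were left out (17, 513, 9 and 84 on days 0, 1, 3 and 7). A Cryab UMI was found in 68.5%, 97.4%, 91.1% and 68.1% of thinned spots on these days. Hspb7 was found in 13.3%, 71.9%, 55.5% and 17.2%, and Hspb1 in 38.8%, 73.1%, 65.5% and 35.5%. A UMI of these genes was thus found in most thinned spots of the day 1 section, but their UMIs were not evenly spread. Of all day 1 spots, 10.5%, 14.1% and 15.6% held 50% of the Hspb1, Hspb7 and Cryab UMIs, against 28.1% for all UMIs. At day 0 these shares were 24.7%, 11.8% and 24.1%, against 32.4%. Hspb6 stayed between 55.4% and 62.5%, and Bag3 between 23.7% and 26.1%. Hspa1a was found in 1.80%, 2.95%, 1.92% and 1.65% of thinned spots, few on each day. The variance of thinned counts over their mean, which is near 1 where UMIs fall on spots at random, went from 1.17 at day 0 to 8.33 at day 1 for Cryab, and from 1.02 to 2.09 for Hspa1a.

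Across thinned spots of a section the small heat shock genes varied together at days 1 and 3. For Cryab and Hspb7, Spearman's rho was 0.10, 0.41, 0.49 and 0.05 on days 0, 1, 3 and 7, and for Hspb1 and Cryab it was -0.0025, 0.37, 0.46 and 0.02. Hspb6 joined at day 3, with rho to Hspb1, Hspb7 and Cryab of 0.36, 0.34 and 0.35, while at day 1 these were 0.15, 0.19 and 0.04. Hsp90aa1 had a rho of -0.21 with Hspb6 at day 3. The spots of a section, 2090 to 3020 in number, share a library and low counts cap rho, so these are descriptions without a p. Given the share of myofibre UMIs, the partial rho of Cryab and Hspb7 was 0.43 for day 1 and 0.48 for day 3.

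**Figure D5:**
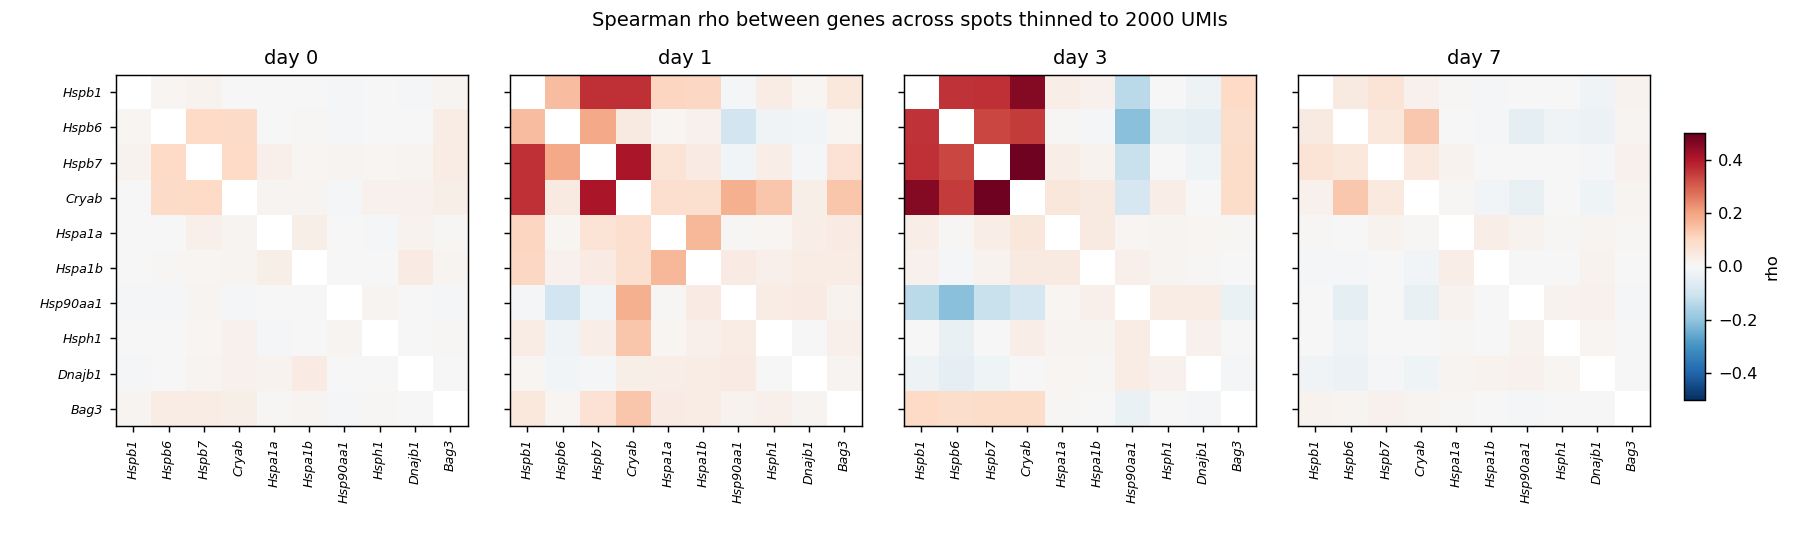
Spearman's rho between each pair of the 10 genes across spots thinned to 2000 UMIs, by section (colour from -0.5 to 0.5, diagonal left blank). The block of Hspb1, Hspb7 and Cryab had rho of 0.36 to 0.49 at days 1 and 3, with Hspb6 added at day 3, and -0.0025 to 0.10 at days 0 and 7.

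The genes most alike each member were taken over 12 profiles (4 sections by 3 groups of spots, which share a library within a section) by Pearson's r of log2(CPM + 1) among 8021 genes. For Hspb7 they were Csrp3 (0.982), a muscle LIM protein of the Z-disc, Diaph1 (0.975) and Cryab (0.955), and for Cryab they were Diaph1 (0.980), the actin crosslinker Flnc (0.977) and Mknk2 (0.961). Hspb1 was nearest to Twf2 (0.973), Rgcc (0.965) and Stk40 (0.965), and Hspb6 to Optn (0.923), Abhd11 (0.916) and Gm44386 (0.905). For Hspa1a the first gene was Hspa1b (0.912), followed by Eci2 (0.880) and Higd1a (0.874), and for Hspa1b the genes were S100a10 (0.958), Ddx56 (0.923) and Actr1b (0.915). Hsp90aa1 was nearest to Ctps (0.989), Slc3a2 (0.983) and Krt80 (0.982). Hsph1 was nearest to Ube2n (0.978), Cinp (0.973) and the chaperonin subunit Cct4 (0.972). Dnajb1 was nearest to Gpr137 (0.985) and Arhgef1 (0.984), and Bag3, with the lowest values, to Fgf1 (0.883), Otud1 (0.869) and Slc22a23 (0.827). Ranks by Spearman's rho over the same profiles differed for some pairs. Gpr137 and Arhgef1 had ranks 518 and 368 for Dnajb1, Cct4 87 for Hsph1, Ddx56 80 for Hspa1b and Rgcc 54 for Hspb1. Rank 1 was kept by Diaph1 for Cryab, Ctps for Hsp90aa1, Ube2n for Hsph1 and Fgf1 for Bag3.

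The rest of the chaperone system was read from lists, to be read against the 17.4%, 33.3% and 32.7% of all genes higher past 2-fold on days 1, 3 and 7. Of 25 other cytosolic chaperones and co-chaperones, 0, 2 and 1 were higher past 2-fold and 1, 1 and 0 lower on days 1, 3 and 7, with medians of 0.14, 0.42 and 0.28. Ahsa1, which stimulates the ATPase of Hsp90, had 30.3, 55.9, 71.1 and 27.7 CPM over days 0, 1, 3 and 7, highest like Hsp90aa1 at day 3. Dnajb5, a J-domain protein, ran the other way with 110, 54.9, 42.4 and 65.4 CPM, and Hsf2, a heat shock factor, had 35.8, 16.6, 18.1 and 50.2 CPM. The other highest log2 ratios to day 0 were 0.83 for Hspbp1 (day 1), 1.06 for Hspa4l (day 3), and 1.16 for Hspa2 and 0.69 for Dnajb6 (day 7), and Hspa8, the constitutive Hsp70, had -0.48 at day 7. The count of 0 higher at day 1 stood beside 6 of 10 among the members. On the TMM scale no gene of this list was higher past 2-fold on any of the 3 days, and 2 were lower on each. No share over all genes was taken on that scale.

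Of 8 other genes of muscle small heat shock proteins, myosin chaperones and their filament partners, 2 were higher and 2 lower past 2-fold at day 1 (median -0.03), 1 and 2 at day 3 (median -0.10) and none at day 7 (median 0.09). Flnc, the filamin that Bag3 and Hspb7 act on, had 283, 1929, 692 and 321 CPM over days 0, 1, 3 and 7, a log2 ratio of 2.77 at day 1. Hspb8, the small heat shock partner of Bag3, had 287, 766, 357 and 406 CPM, and thus 1.41 at day 1. Smyd1, a methyltransferase that helps build myosin filaments, had 267, 91.2, 103 and 188 CPM, and Synpo2, a Bag3-binding Z-disc protein, 343, 147, 169 and 251 CPM. Des, the muscle intermediate filament protein, had log2 ratios of 0.61 for day 3 and 0.30 for day 7.

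Of 8 mitochondrial chaperones, Hspe1 at day 3 was the 1 higher past 2-fold (119, 231, 379 and 139 CPM, log2 ratio 1.67), and none was lower, with medians of 0.18, 0.18 and 0.04. Its partner Hspd1 had 0.94 at day 3, and Grpel1 (0.44 at day 1), Dnaja3 (-0.48, -0.53 and -0.21) and Clpb (-0.39, -0.03 and 0.25) stayed within 2-fold. Of 18 endoplasmic reticulum chaperones and unfolded protein response genes, 9, 11 and 5 were higher past 2-fold and none lower on days 1, 3 and 7, with medians of 0.90, 1.30 and 0.83. At day 7 this share of the list was not above that of all genes. Sdf2l1, a luminal chaperone partner, had 4.86, 30.3, 29.0 and 9.30 CPM, and Dnajb9, a target of the unfolded protein response, 29.1, 137, 37.9 and 42.2 CPM. Creld2 (1.97 at day 3), Pdia4 and Pdia3 (2.04 and 1.46 at day 7) were among the highest, while Herpud1 (0.24 and 0.05 for days 1 and 3) and Atf4 and Xbp1 (0.18 and 0.36 at day 7) were low, and the collagen chaperone Serpinh1 had -0.43 at day 1. On the TMM scale, for which no share over all genes was taken, the counts higher in this list were 8, 7 and 1.

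Stress genes of other kinds were read in the same way. Among 9 oxidative and metal stress genes, Slc7a11 had 2 UMIs at day 0, under the floor of 3, so its ratios are not given. The other 8 genes gave 7 higher past 2-fold for day 1, 5 for day 3 and 1 for day 7, and none lower, with medians of 2.61, 1.53 and 0.64. At day 7 that share was below the one over all genes. Hmox1, which degrades heme, had 3.53, 79.2, 64.0 and 15.9 CPM over days 0, 1, 3 and 7, and Srxn1, a peroxiredoxin repair enzyme, 15.8, 179, 57.4 and 25.9 CPM. Mt1 and Mt2, the metallothioneins, had log2 ratios of 3.39 and 3.28 for day 1, 3.25 and 3.52 for day 3, and 0.14 and 0.48 for day 7, and Txnrd1 (0.97 at day 1), Sqstm1 (1.40 and 0.56 for days 1 and 3) and Gclm (0.81 at day 3) had the lowest ratios on those days. Of 12 immediate early genes, 7, 9 and 7 were higher past 2-fold and 1, 1 and 0 lower, with medians of 1.69, 1.79 and 1.11. Junb had 9.46, 64.5, 254 and 78.7 CPM, and Fos had 7.66, 25.7, 81.0 and 38.8 CPM. Nr4a1 was the one called lower, with 247, 64.3, 91.7 and 154 CPM, and Fosb (3.39 and 3.11 for days 1 and 7, from 0.296 CPM at day 0), Zfp36 (0.27 and -0.23 for days 1 and 7) and Dusp1 (0.07 at day 3) completed the extremes.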

How the data were processed

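Spatial RNA was measured on 4 Visium sections, 1 per day. The deposited values are raw UMI counts per gene and spot, made by the authors with Space Ranger, which the file headers give as 1.2.0 and the study's methods as another version, and the labels name mm10. No spot was removed by this work, spots are regions of several cells, and no doublet caller was run. UMIs were summed per section or group of spots and scaled to CPM. Intervals are exact (95%) and cover counting error alone. A gene under 3 UMIs was entered at 3, genes with at least 10 UMIs over both sections were compared, and calls were made at 2-fold. Named genes were all members, the 2 highest and 2 lowest of each list and day, and the 3 genes most alike a member, of which 1 is not reported here. The members and lists were chosen with earlier results of these data known. Ddit3, carried by 2 features, was left out. The calculation was tested on simulated data. Alternatives used edgeR 4.0.16 and DESeq2 1.42.0 factors under R 4.3.3, with SciPy 1.17.1 elsewhere. Spot positions and single-cell libraries were not used here.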

Additional observations from a re-analysis of the deposited data

Results flagged for a closer look

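The ratio of muscle-rich over muscle-poor spots had one sign in the uninjured section and the other in an injured one for 5 genes, with counting intervals that left out 0 on both sides. For Hspb6 the log2 ratio was -0.73 at day 0 and 0.26, 2.15 and 0.74 at days 1, 3 and 7. For Cryab it was -0.74 at day 0 and 0.093 and 0.27 on days 3 and 7. For Hspb7 it was -1.95 at day 0 and 0.61 at day 3, for Hspa1a -1.42 at day 0 and 0.63 at day 1, and for Bag3 -0.31 at day 0 and 0.42 at day 3. These signs were the same with the total without myofibre, mitochondrial and haemoglobin genes. The day 1 value of Hspa1a came from 178 UMIs in muscle-rich and 101 in muscle-poor spots. A single spot of that section held 47 Hspa1a UMIs, and the interval does not cover such dependence on few spots. With 1 section per day the difference between days was not tested.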

How the results depend on the processing

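No paired analysis was possible because each day has 1 section, and no replicate could be left out. The median log2 ratio of the 10 genes was 0.62, 0.60 and 0.75 at day 3 and -0.50, -0.53 and -0.18 at day 7 with TMM factors, DESeq2 size factors and a reduced total (no myofibre, mitochondrial or haemoglobin genes), and 1.39 at day 1 in the middle spots by myofibre share. The count of members higher at day 7 was 0 under each of these 4 settings. In the muscle-rich against muscle-poor spots of day 7, the count higher was 1 with 20% of the spots on each side and 1 with the reduced total, and the count lower was 0 with the reduced total. The other 81 planned values of this kind kept their count within 1.5 times or their median within the main interval. Of the values for single genes, pairs of genes and lists, 1377 stayed within the main range and 789 moved out of it. These include shares of spots thinned to another depth, which differ with depth, and list medians, which were always counted as moved. No called ratio of a member changed sign under a planned setting. Depth limits the thinly counted genes: Hspa1a, Hspa1b and Dnajb1 had 265 to 546 UMIs at day 0, and a ratio within its interval of 2-fold, as for Dnajb1 at day 7, is not settled by these counts.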
